A study of Mus musculus with 9 samples.

Results

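The genes described here are 37 genes of DNA repair and of the Fanconi anaemia pathway, followed in the mouse heart from birth to adulthood. They were taken by name from a list, and each was read by the probe set whose platform annotation gives that gene symbol alone; for the 2 genes with several such probe sets (Bard1 and Nbn) the brightest was taken. All 37 listed genes had a probe set, out of 19938 named genes measured. Cardiac muscle came from mice of the inbred strain C57BL/6, at 24 hours, 7 days and 10 weeks of age, and the labels name no treatment, transgene or mutation. Total RNA was hybridised to Affymetrix Mouse Gene 1.0 ST arrays, on which several short probes read each gene, with 3 arrays for each age and 9 in all. The deposited values are log2 signals, so a difference of 1 is a 2-fold difference. The labels do not say whether replicates came from separate animals or from pools. Each younger array gave signals of a female-expressed gene and of Y-linked genes (values below), and pooling was not tested. The p-values therefore measure only the spread between these arrays. In whole tissue, fewer cells of a type and less RNA per cell cannot be told apart.

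DNA is damaged in every cell, and separate pathways mend separate lesions. Double-strand breaks are copied back from the sister chromatid by homologous recombination, or they are rejoined directly by end joining, which starts when the Ku heterodimer (XRCC5 and XRCC6) binds the ends. The Fanconi core complex attaches ubiquitin to the FANCD2 and FANCI proteins at crosslinks that block replication, mismatch repair corrects copying errors, and PARP1 with the scaffold XRCC1 serves nicked DNA. Recombination, crosslink repair and mismatch repair act mainly during or after DNA replication, whereas end joining works in every phase of the cell cycle. Mouse cardiomyocytes are known to stop dividing around the end of the first postnatal week.

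Cardiomyocyte markers were high on all 9 arrays, with Tnnt2, the cardiac troponin T gene, between 13.03 and 13.16. The thymocyte and T cell markers summed to a log2 signal of 7.18 to 7.53 over all arrays. On the 7-day arrays the brown fat gene Ucp1 gave signals of 4.30, 11.23 and 9.27 in replicates 1, 2 and 3, against 3.92 to 4.27 elsewhere. Results at 7 days are therefore also given without replicates 2 and 3 where these decide a call. The airway gene Scgb1a1 measured 5.83 in 24-hour replicate 1 and 6.83 in 7-day replicate 2, against 2.49 to 2.76 elsewhere. The airway genes Sftpc and Sftpb stayed within 3.62 to 4.48. The liver gene Alb measured 7.81 in 7-day replicate 2, 4.16 to 6.04 at 24 hours and 3.73 to 4.12 elsewhere. The liver gene Fgb stayed within 4.23 to 4.39. Eif2s3y, a gene of the Y chromosome, measured 2.87 to 3.30 at 10 weeks, against 6.06 to 7.70 at the younger ages. The Y-linked gene Uty measured 3.2 to 3.34 at 10 weeks, against 5.26 to 6.86 at the younger ages. The female-expressed gene Xist measured 8.69 to 8.97 at 10 weeks and 8.26 to 9.56 at the younger ages. Every younger array thus gave both kinds of signal, while at 10 weeks Xist was high and these Y-linked genes were low. Age and the sex of the animals therefore cannot be told apart at 10 weeks. The table has no detection flags; 18 of the 37 genes stayed below the median signal of all genes (5.57) in the mean of every age, and a difference towards a dim signal can be understated.

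Promoter sequences are shown first, because E2F words, described here, stood in the windows of 20 of the 31 listed genes that have one, both in genes whose signal moved and in genes whose signal did not pass the test. The windows run from 250 bases before to 50 bases after the annotated start (RefSeq, build GRCm38.p6), and 31 of the 37 genes have at least 1 window in that table. Capitals mark any of 4 words of the E2F type that resemble sites of the E2F factors, which drive S-phase genes. These are TTCCCGC and the related form TTCGCGC, together with the form TTGCCGC and, as the last, the form TTGGCGC. The box CCAAT, a site of NF-Y, and the cell cycle homology region, whose letters are TTTGAA, were searched too, all on both strands, and a CCAAT box on the opposite strand can overlap the last E2F form. Shown are the genes with the largest falls (Chek1 and Rad51c, shown by the first of its 2 windows), a gene of the Fanconi ID complex (Fanci), and Ercc1, whose signal did not pass the test. Each is read 5′ to 3′ on the strand of its gene: Chek1 at chr9:36726609-36726908 (minus strand), Rad51c at chr11:87404457-87404756 (minus strand), Fanci at chr7:79392088-79392387 (plus strand) and Ercc1 at chr7:19344821-19345120 (plus strand).
Chek1: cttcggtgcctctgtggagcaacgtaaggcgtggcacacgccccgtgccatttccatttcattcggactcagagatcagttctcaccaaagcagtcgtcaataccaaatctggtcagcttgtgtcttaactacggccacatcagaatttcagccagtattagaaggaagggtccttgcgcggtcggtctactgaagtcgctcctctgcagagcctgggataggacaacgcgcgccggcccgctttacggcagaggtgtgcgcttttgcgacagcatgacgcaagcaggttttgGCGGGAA
Rad51c: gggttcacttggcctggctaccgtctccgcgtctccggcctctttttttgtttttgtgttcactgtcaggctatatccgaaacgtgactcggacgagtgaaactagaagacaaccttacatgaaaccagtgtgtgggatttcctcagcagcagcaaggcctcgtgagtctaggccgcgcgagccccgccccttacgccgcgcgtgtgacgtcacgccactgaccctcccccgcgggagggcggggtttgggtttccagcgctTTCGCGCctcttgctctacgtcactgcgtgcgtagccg
Fanci: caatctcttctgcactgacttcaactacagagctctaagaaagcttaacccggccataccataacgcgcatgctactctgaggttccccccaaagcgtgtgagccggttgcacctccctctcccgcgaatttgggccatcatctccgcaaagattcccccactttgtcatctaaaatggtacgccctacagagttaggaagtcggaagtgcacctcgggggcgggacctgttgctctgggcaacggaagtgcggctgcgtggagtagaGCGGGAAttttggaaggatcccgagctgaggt
Ercc1: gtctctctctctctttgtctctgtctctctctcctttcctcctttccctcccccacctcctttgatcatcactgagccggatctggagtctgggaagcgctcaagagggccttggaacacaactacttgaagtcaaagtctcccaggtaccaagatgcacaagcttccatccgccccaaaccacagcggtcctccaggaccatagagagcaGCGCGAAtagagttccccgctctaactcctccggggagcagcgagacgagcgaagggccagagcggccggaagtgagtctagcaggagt
Each of these windows holds 1 E2F word and neither of the other words. Counting from the first base after the start as 1, the word lies at 44 to 50 in Chek1, at 13 to 19 in Rad51c and at 19 to 25 in Fanci, and 39 to 33 bases before the start in Ercc1.

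Over all windows of the listed genes, 21 of 34 (61.8%) held an E2F word, against 9.57% of the 32851 windows in the table and 12.8% of the windows of genes tested on the arrays. In the windows of a list of 32 mitosis and replication genes it was 13 of 28 (46.4%). Windows without the word include both of Rad54l's and those of Xrcc5 and Parp1. No test of these shares was made. The word was about as frequent in the windows of genes that were lower at 10 weeks than at 7 days (12 of 19) as in the others (9 of 15). Counted by gene, because some genes have 2 windows, it was 11 of 16 (68.8%) against 9 of 15 (60.0%). CCAAT was present in 21 of 34 windows (61.8%), against 25 of 28 (89.3%) in the mitosis and replication list and 37.4% of all. The cell cycle homology region was present in 2 of 34 (5.88%), against 17.9% of all windows and 13 of 28 (46.4%) in the mitosis and replication list. The E2F words are rich in G and C, and the median GC content was 58.2% in the windows of the listed genes, 52.7% in all windows and 57.7% in those of genes tested. A match describes letters, not a bound site, and some genes have overlapping windows.

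**Figure D1:**
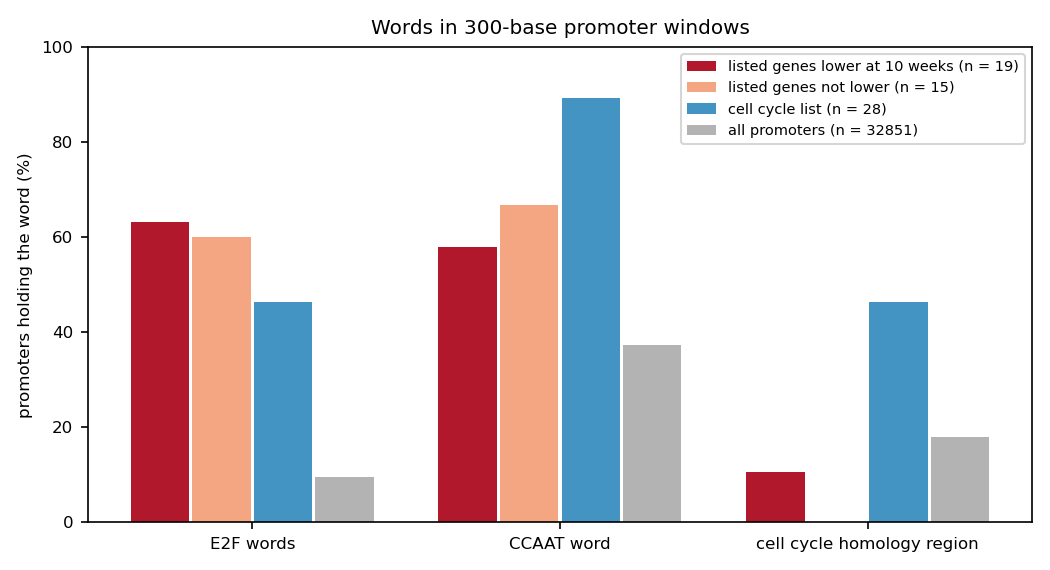
Share of 300-base promoter windows (vertical axis, percent) that hold E2F words, CCAAT or the cell cycle homology region, for listed genes lower at 10 weeks, listed genes not lower, a cell cycle list and all windows of the table. E2F words occur in 63.2% and 60.0% of the windows of the first 2 sets, against 46.4% in the cell cycle list and 9.57% of all windows.

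The comparison of 10-week with 7-day hearts asks what differs between the adult and the growing heart. At 10 weeks 20 of the 37 genes were lower and 1 was higher (limma's test with Benjamini-Hochberg adjustment over 19938 genes, adjusted p under 0.05). Of all genes tested, 18.9% were lower, 17% higher and 35.9% called in either direction. The falls took in the checkpoint kinase gene Chek1, 8 of 11 recombination genes, both genes of the Fanconi ID complex, 3 of 8 genes of the Fanconi core complex and 2 of 3 mismatch repair genes. The 1 rise was that of the Ku subunit gene Xrcc5. The median log2 difference was -0.26 for the listed genes and 0.04 for all genes tested. At a fold of at least 2, 3 of the listed genes were lower and 0 higher, where 2.98% and 2.07% of all genes were. Without 7-day replicates 2 and 3, which leaves 1 array at that age, 11 of the genes were called lower, and the median difference was -0.30; the genes no longer called were Rad50, Exo1, Bard1, Rad51b, Rad54b, Fanca, Fancl, Fanci and Parp1. Their differences in that fit were still below 0, such as -0.39 for Rad50, -0.52 for Bard1, -0.51 for Fancl, -0.19 for Parp1 and, the smallest, -0.15 for Rad51b.

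**Figure D2:**
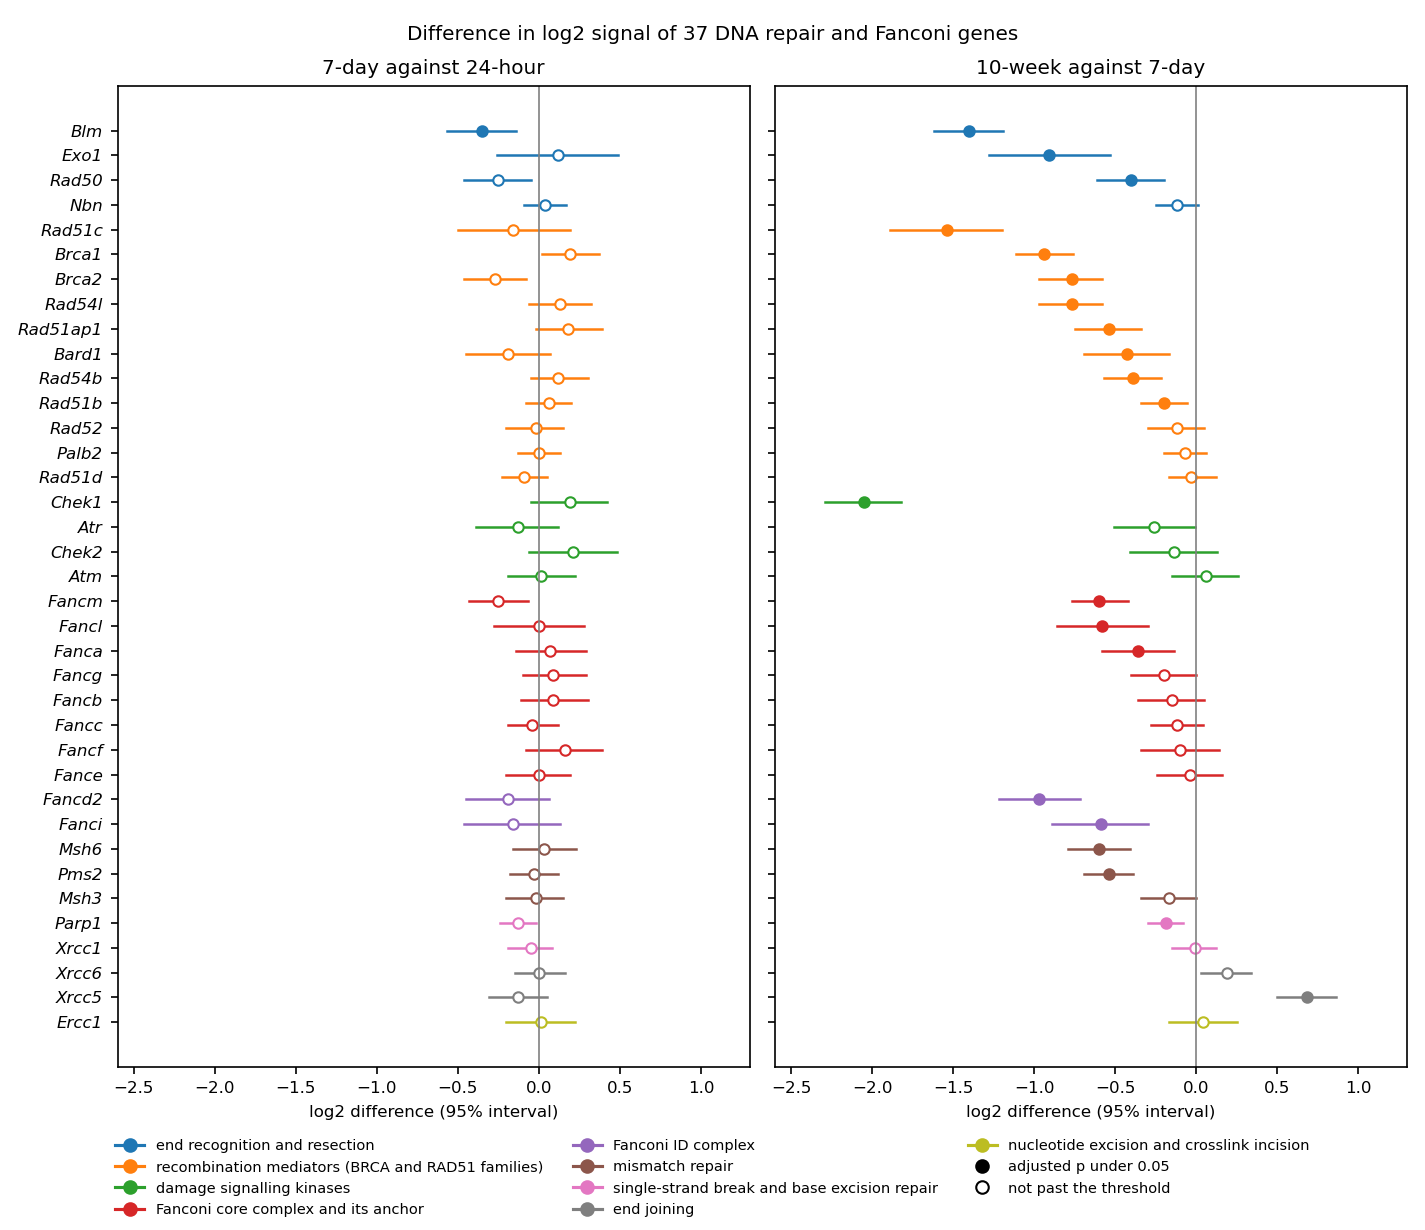
Log2 difference of each of the 37 genes (horizontal axis, bars are 95% intervals) in 7-day against 24-hour hearts (left) and 10-week against 7-day hearts (right), coloured by role, with filled points at an adjusted p under 0.05. On the right, 20 genes lie lower and Xrcc5 higher; on the left, Blm is the one filled point.

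Levels of proliferation genes and of other cell types moved over the same interval. All 32 genes of the mitosis and replication list were lower at 10 weeks than at 7 days by limma's test (median -1.98). Ccna2 was lower by 4.15 and Mki67 by 3.58. The listed repair genes fell in fewer cases and by less, and a difference between the lists was not tested. At 7 days the listed repair genes averaged 5.66 to 5.68 and the mitosis and replication list 7.13 to 7.31. A fall towards a dim signal can be understated. Of 5 erythroid markers 3 were lower at 10 weeks, where the list summed to a log2 signal of 7.93 to 8.5, against 10.18 to 10.47 at 7 days, and the erythroid factor gene Klf1 lay between 4.16 and 4.59 on all arrays. Of 6 fibroblast markers 4 were lower, with sums of 12.72 to 12.95 at 10 weeks, against 13.11 to 13.36 at 7 days. Of 6 endothelial markers 4 were lower, with sums of 11.90 to 12.05 against 12.22 to 12.27. All 8 macrophage markers were higher, with sums of 11.07 to 11.22 at 10 weeks, against 9.97 to 10.11 at 7 days. No marker is listed at 0. The part of these cells in the falls of the repair genes was not tested.

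Among the damage signalling kinases, Chek1 fell and its 3 companions did not pass the test. CHK1 is the kinase that holds the cell cycle when replication stalls, and its gene (probe set 10592201) measured 5.70, 5.72 and 6.08 at 24 hours, 6.08, 5.89 and 6.09 at 7 days and 3.91, 3.98 and 4.0 at 10 weeks. Every 10-week array lay below every younger one. The 10-week mean of 3.96 ± 0.05, against 6.02 ± 0.11 at 7 days (SD, n = 3 each), is a 4.15-fold lower signal (log2 difference -2.05 ± 0.10 SE, adjusted p = 2.12e-07 by limma), the largest fall of the 37. Chek2, which encodes the kinase activated by ATM at double-strand breaks, averaged 5.12 ± 0.23 at 10 weeks and 5.27 ± 0.05 at 7 days, a difference of -0.14 with a 95% interval of -0.41 to 0.13.

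The apical kinases moved little. Atm, the kinase that answers double-strand breaks, measured 6.09, 6.08 and 6.09 at 24 hours, 6.09, 6.11 and 6.09 at 7 days and 5.99, 6.08 and 6.39 at 10 weeks. The younger arrays were almost identical, and the 10-week arrays lay on both sides of them (difference from 7 days 0.06, interval -0.15 to 0.26). Atr, the kinase that answers single-stranded DNA at stalled forks and acts through CHK1, measured 6.06, 6.18 and 6.14 at 24 hours, 6.04, 6.00 and 5.94 at 7 days and 5.45, 5.76 and 5.99 at 10 weeks. The highest 10-week array reached the range of the 7-day ones, and the difference of -0.26 did not pass (limma adjusted p = 0.105); without 10-week replicate 3 it was -0.39 (adjusted p = 0.01). Against 24 hours Atr was lower by 0.39 at 10 weeks (adjusted p = 0.0185), a call lost without 24-hour replicate 2 (adjusted p = 0.064) or replicate 3 (adjusted p = 0.0546).

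In the recombination group 8 of 11 genes fell, by unequal amounts. Rad51c, a gene of homologous recombination (probe set 10389627), measured 6.31, 6.28 and 6.56 at 24 hours, 6.30, 6.19 and 6.19 at 7 days and 4.73, 4.30 and 5.03 at 10 weeks. The adult arrays were spread over more than the younger ones and lay below all of them. The signal was 2.91-fold lower at 10 weeks than at 7 days (difference -1.54 ± 0.16 SE, limma adjusted p = 2.38e-05). Its partners in the same protein complex differed less. Rad51b fell by 0.20 (adjusted p = 0.0295), a call lost when arrays were centred on their medians and in 7 of the other alternatives, and Rad51d averaged 6.37 ± 0.08 at 10 weeks and 6.40 ± 0.05 at 7 days (interval of the difference -0.17 to 0.12).

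Brca1, whose product with BARD1 forms a ubiquitin ligase that promotes resection and recombination (probe set 10391461), measured 4.68, 4.71 and 4.91 at 24 hours, 5.04, 4.90 and 4.94 at 7 days and 4.09, 4.05 and 3.93 at 10 weeks. All adult arrays were below all younger ones, and the 10-week signal was 52.2% of that at 7 days (difference -0.94 ± 0.08 SE, limma adjusted p = 6.04e-06). Brca2 (probe set 10527801) measured 4.96, 4.90 and 5.19 at 24 hours, 4.79, 4.78 and 4.67 at 7 days and 4.01, 3.86 and 4.04 at 10 weeks. The ages lay in descending order without overlap, and the fall after 7 days was by 0.77 (adjusted p = 4.94e-05). Bard1 fell by 0.43 (adjusted p = 0.0143), to 4.02 ± 0.11 at 10 weeks, against 4.45 ± 0.12 at 7 days. That call was lost without 7-day replicate 1 (adjusted p = 0.054), 7-day replicate 3 (0.0512) or 10-week replicate 1 (0.0579), and the other 2 probe sets of Bard1 differed by -0.22 and -0.01. Palb2, which links BRCA1 to BRCA2, averaged 3.61 ± 0.07 at 10 weeks and 3.68 ± 0.07 at 7 days (interval of the difference -0.20 to 0.06).

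The RAD54 translocases, which remodel recombining DNA, were both lower in the adult. Rad54l measured 5.0, 5.04 and 5.11 at 24 hours, 5.22, 5.02 and 5.31 at 7 days and 4.32, 4.53 and 4.38 at 10 weeks. The adult arrays stood apart, with a fall by 0.77 from the 7-day mean (limma adjusted p = 5.2e-05), and Rad54b fell by 0.39 (adjusted p = 0.00258). Rad51ap1, whose product promotes homologous recombination, fell by 0.54 (adjusted p = 8.77e-04), to 4.13 ± 0.14 at 10 weeks, against 4.68 ± 0.13 at 7 days. Rad52, a strand-annealing factor, measured 6.81, 6.88 and 6.81 at 24 hours, 6.82, 6.81 and 6.81 at 7 days and 6.64, 6.55 and 6.87 at 10 weeks. Adult replicate 3 lay with the younger arrays while the other adult arrays lay below them, and the difference of -0.12 did not pass (adjusted p = 0.262), though it did without that array (-0.21, adjusted p = 0.0178).

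Of the genes that recognise and trim broken ends or unwind the products, Blm, Exo1 and Rad50 fell after 7 days and Nbn did not pass. Blm encodes the Bloom helicase, which dissolves joined recombination intermediates. Its probe set (10564978) measured 6.07, 5.91 and 6.28 at 24 hours, 5.69, 5.69 and 5.82 at 7 days and 4.43, 4.25 and 4.31 at 10 weeks. It was lower at each later age, with no overlap, and the 10-week signal was 37.8% of the 7-day one (difference -1.4 ± 0.10 SE, limma adjusted p = 1.44e-06). Exo1, an exonuclease of resection and mismatch repair, measured 5.07, 5.19 and 5.49 at 24 hours, 5.23, 5.56 and 5.32 at 7 days and 4.07, 4.55 and 4.76 at 10 weeks. The adult values were the lowest but the most scattered, with a difference of -0.91 ± 0.17 SE from 7 days (adjusted p = 0.00172).

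RAD50 and NBN are partners in the complex that tethers broken ends and activates ATM. Rad50 measured 7.68, 7.60 and 7.64 at 24 hours, 7.38, 7.41 and 7.38 at 7 days and 6.98, 6.77 and 7.20 at 10 weeks. The ages did not overlap, and the fall after 7 days was by 0.40 (limma adjusted p = 0.00573). Nbn measured 7.81, 7.79 and 7.88 at 24 hours, 7.90, 7.80 and 7.91 at 7 days and 7.68, 7.76 and 7.81 at 10 weeks. The ages overlapped, the difference was -0.12 (interval -0.25 to 0.01), and the second Nbn probe set differed by 0.03.

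In the Fanconi pathway the ID complex fell, and most genes of the core complex did not pass the test. Fancd2 (probe set 10540738) measured 4.84, 4.93 and 5.21 at 24 hours, 4.63, 4.78 and 4.98 at 7 days and 3.88, 3.86 and 3.73 at 10 weeks. The younger ages overlapped and the adult arrays lay below both, at 50.9% of the 7-day signal (difference -0.97 ± 0.11 SE, limma adjusted p = 6.46e-05). Fanci measured 4.64, 4.51 and 5.06 at 24 hours, 4.45, 4.58 and 4.68 at 7 days and 3.81, 4.05 and 4.06 at 10 weeks. It followed the same order with a smaller fall, by 0.59 from 7 days (adjusted p = 0.00503). Fancm, the DNA translocase that anchors the core complex on chromatin, measured 5.42, 5.38 and 5.54 at 24 hours, 5.16, 5.27 and 5.17 at 7 days and 4.49, 4.75 and 4.57 at 10 weeks. Its ages descended without overlap, and it fell by 0.60 after 7 days (adjusted p = 1.95e-04).

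Fancl, the ubiquitin ligase of the core complex, fell by 0.58 (limma adjusted p = 0.00397), to 5.76 ± 0.30 at 10 weeks, against 6.35 ± 0.09 at 7 days. Fanca, a structural subunit, measured 4.79 on each 24-hour array, 4.83, 4.92 and 4.84 at 7 days and 4.59, 4.25 and 4.67 at 10 weeks. The adult arrays were lowest, by 0.36 from 7 days (adjusted p = 0.0148), a call lost without 7-day replicate 2 (adjusted p = 0.0524). The other core genes, Fancb, Fancc, Fance, Fancf and Fancg, differed by -0.20 to -0.04 and did not pass. Without 7-day replicate 2 Fancg did pass (-0.27, limma adjusted p = 0.0455). Against 24 hours Fancc passed after quantile normalization (-0.21, adjusted p = 0.0318) or without 10-week replicate 3 (-0.20, adjusted p = 0.0493). The X-linked Fancb measured 4.02, 3.96 and 4.21 at 24 hours, 4.13, 4.09 and 4.25 at 7 days and 3.82, 4.09 and 4.09 at 10 weeks, and these ages overlapped. Fance averaged 6.14 ± 0.03 at 10 weeks and 6.18 ± 0.13 at 7 days, with an interval of -0.24 to 0.16 for the difference.

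Mismatch repair genes were lower in the adult in 2 of 3 cases. Msh6, whose product takes part in recognising single mispaired bases, measured 5.88, 5.75 and 5.92 at 24 hours, 5.83, 5.85 and 5.96 at 7 days and 5.25, 5.15 and 5.44 at 10 weeks. The younger ages were alike in range and the adult arrays lay below them, by 0.60 from 7 days (limma adjusted p = 2.87e-04). Pms2, the endonuclease subunit that acts after recognition, fell by 0.54 (adjusted p = 1.03e-04). Msh3, whose product takes part in recognising longer loops, averaged 6.23 ± 0.10 at 10 weeks and 6.39 ± 0.10 at 7 days and did not pass (adjusted p = 0.119).

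The end joining genes had higher signals in the adult, and 1 of the 2 passed the test. Xrcc5 encodes the larger Ku subunit, and its probe set (10347232) measured 6.94, 7.06 and 6.99 at 24 hours, 6.87, 6.88 and 6.83 at 7 days and 7.51, 7.39 and 7.72 at 10 weeks. All adult arrays were above all younger ones, with a 1.60-fold rise from 7 days (difference 0.68 ± 0.08 SE, limma adjusted p = 7.54e-05). Xrcc6, the smaller subunit, measured 6.43, 6.56 and 6.57 at 24 hours, 6.55, 6.46 and 6.56 at 7 days and 6.70, 6.79 and 6.63 at 10 weeks. The adult arrays were again the highest, but the difference of 0.19 lay at the threshold: adjusted p was 0.057 against 7 days and 0.0488 against 24 hours. It passed against 7 days with arrays centred on their medians (0.24, adjusted p = 0.0193) or quantile-normalized (0.27, adjusted p = 0.0101), and against 24 hours it was lost in 12 alternatives, among them the removal of any 24-hour or 7-day array or of 10-week replicate 1 or 2 (differences of 0.14 to 0.21). Without 10-week replicate 3, Xrcc6 (0.23) and Ercc1 (0.17) joined Xrcc5 as higher than at 7 days.

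Of the genes of nicked DNA and excision, Parp1 fell slightly and Xrcc1 and Ercc1 did not pass. Parp1, the sensor that marks breaks with poly-ADP-ribose, measured 7.90, 7.97 and 7.98 at 24 hours, 7.82, 7.83 and 7.81 at 7 days and 7.63, 7.62 and 7.65 at 10 weeks. The replicates were close and the ages descended without overlap, so that a fall by 0.19 from 7 days passed the test (limma adjusted p = 0.0115); with arrays centred on their medians it was -0.13 (adjusted p = 0.0561) and after quantile normalization -0.11 (adjusted p = 0.105). Xrcc1 measured 6.50, 6.59 and 6.67 at 24 hours, 6.53 on each 7-day array and 6.54, 6.53 and 6.48 at 10 weeks. It did not pass, with an interval of -0.15 to 0.12. Ercc1, a subunit of the nuclease that cuts beside bulky lesions and crosslinks, measured 7.09, 7.10 and 7.09 at 24 hours, 7.09, 7.10 and 7.13 at 7 days and 7.26, 7.29 and 6.88 at 10 weeks. Adult replicates 1 and 2 lay above the younger arrays and replicate 3 below, and the difference of 0.04 did not pass with all arrays, as against 0.17 without that replicate (adjusted p = 0.024).

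**Figure D3:**
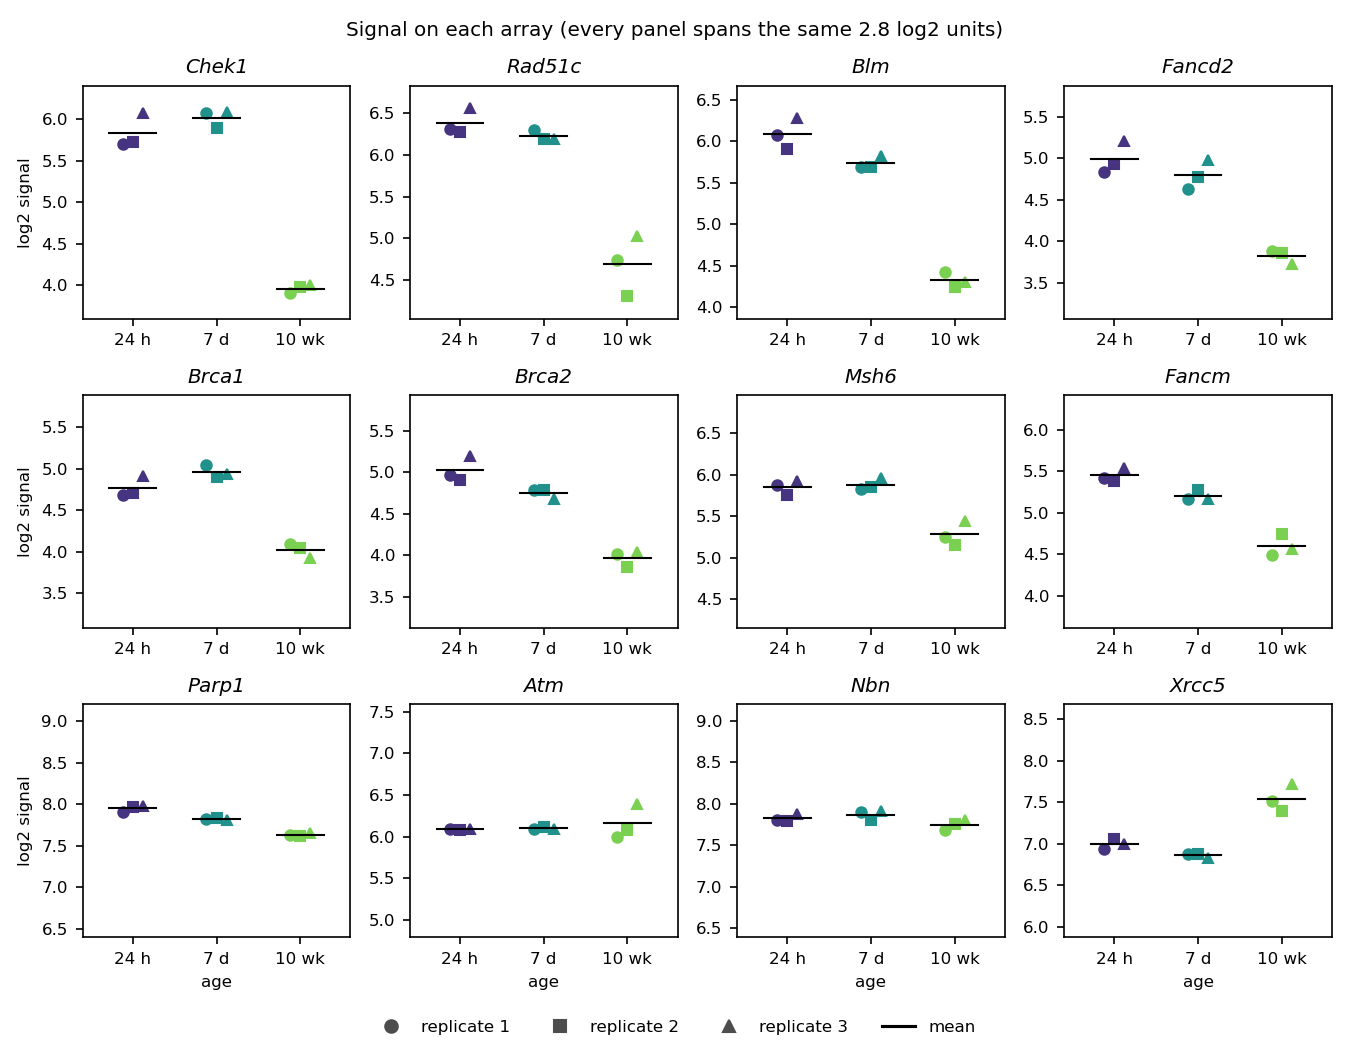
Log2 signal (vertical axis) of 12 of the genes on each of the 9 arrays by age, with symbols for replicates and a line for the mean of each age; every panel spans the same range. Chek1 sits between 3.91 and 4.0 at 10 weeks, against 5.70 to 6.09 at the younger ages, while Xrcc5 is highest at 10 weeks and Atm overlaps between ages.

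As a description, genes whose products work side by side were set against each other. For 12 such partnerships, chosen with the values known, the ratio of the partners was formed within each array and its 10-week mean set against its 7-day mean. The largest change was that of Chek1 over Chek2 (by -1.91), followed by Rad51c over Rad51d (-1.51) and Rad51c over Rad51b (-1.34). Brca2 over Palb2 changed by -0.71, Brca1 over Bard1 by -0.51, Xrcc5 over Xrcc6 by 0.49, Msh6 over Msh3 by -0.43, and Fancd2 over Fanci and Rad54l over Rad54b by -0.38 each. Atr over Atm changed by -0.32, Rad50 over Nbn by -0.28 and Parp1 over Xrcc1 by -0.18. In each of the 12 the 10-week ratios lay apart from the 7-day ones. Each gave p = 0.1 in a two-sided exact permutation test, before and after adjustment over the 12. With 3 arrays against 3 no smaller p is possible, so this test could not call a difference for any pair. Palb2 and Rad51b are dim on every array, where a fall can be understated.

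The comparison of 7-day with 24-hour hearts asks what changed in the first week. The listed genes hardly moved: 1 gene, Blm, was lower at 7 days by limma's test, and 0 were higher, where 4.81% of all genes were lower, 5.27% higher and 10.1% either. At an unadjusted p under 0.05, 5 of the genes were lower and 1 higher. The median difference was 0.00 for the listed genes and for all genes alike. Blm averaged 5.74 ± 0.07 at 7 days and 6.09 ± 0.19 at 24 hours, a fall by 0.35 (adjusted p = 0.0427). This call did not hold in 9 alternatives (adjusted p of 0.0516 to 0.254), among them the removal of 24-hour replicate 1 or 3, of any 7-day array, or of 10-week replicate 1 or 3. After Blm the largest differences were those of Brca2 (-0.27, adjusted p = 0.0826), Rad50 (-0.25, adjusted p = 0.132) and Fancm (-0.25, adjusted p = 0.0893); without 10-week replicate 2, Rad50 (adjusted p = 0.0375) and Fancm (adjusted p = 0.0465) passed with Blm, 3 in all. Each of these genes also fell after 7 days. The intervals of the 36 genes that did not pass reached from -0.50 at the lowest to 0.49 at the highest.

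Over the whole span, 10-week against 24-hour, 20 genes were lower and 2 higher, where 20.6% of all genes were lower, 19.5% higher and 40.1% either. This comparison shares its arrays with the others. By the calls of both steps, 18 genes fell after 7 days without having passed the test before, and were lower over the whole span; Blm passed in both steps. Rad51b fell after 7 days but did not pass over the span, Atr passed over the span alone, and 14 genes passed in no comparison: Nbn, Palb2, Rad51d, Rad52, Atm, Chek2, Fancb, Fancc, Fance, Fancf, Fancg, Msh3, Xrcc1 and Ercc1. The largest differences over the span were those of Chek1 (-1.87), Blm (-1.76), Rad51c (-1.70), Fancd2 (-1.17) and Brca2 (-1.04), the 5 genes that were at least 2-fold lower (3.39% of all genes). Fanca was lower by 0.29 (adjusted p = 0.0397), a call lost in 11 alternatives, among them the removal of any one 24-hour or 7-day array or of 10-week replicate 2. Rad54b was lower by 0.27 (adjusted p = 0.019), a call lost without 24-hour replicate 2 (adjusted p = 0.0503) or 3 (0.0549) or 10-week replicate 1 (0.0632) or 3 (0.0502).

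Other genes of the same pathways, from a list of 110 of which 96 were measured were mostly lower too where they passed. Between 7 days and 10 weeks 33 of the 96 were lower and 7 higher at 10 weeks by limma's test. Of all genes 18.9% were lower and 17% higher. The median difference of the 96 was -0.13. The largest falls were those of Neil3, a glycosylase for oxidised bases in replicating cells (by 2.29, adjusted p = 1.41e-06), Rev3l, the catalytic subunit of a translesion polymerase (by 1.49), Gen1, a resolvase of recombination junctions (by 1.23), and Topbp1, which activates ATR (by 1.21). The largest rise was that of Parp3, a relative of PARP1 that acts at double-strand breaks, which measured 7.71, 7.82 and 7.85 at 10 weeks, against 6.32, 6.46 and 6.46 at 7 days (difference 1.38, adjusted p = 6.62e-07). Polq, the polymerase of microhomology-mediated joining, rose by 0.56, Brcc3, a deubiquitinase of the BRCA1-A complex, by 0.41, and Swi5, a gene of homologous recombination, by 0.35. Brcc3 is X-linked, and age and sex cannot be told apart at 10 weeks. The number higher was 3 without 7-day replicate 2 or without 10-week replicate 1.

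Against 18.9% of all genes lower and 17% higher, and with no test between pathways, 8 of 15 signalling genes fell after 7 days and 1 rose, 6 of 11 genes of translesion synthesis and direct reversal fell and 1 rose, 6 of 17 recombination genes fell and 2 rose, and 4 of 11 Fanconi and crosslink genes fell. The 2 recombination genes that rose were Swi5 and Polq, which the list counts here although its polymerase serves microhomology-mediated joining. Of 20 base excision genes 6 fell and 1 rose, and of 13 nucleotide excision genes 3 fell and 1 rose. Of 7 further end joining genes 1 rose and 0 fell by limma's test (0 fell at an unadjusted p under 0.05 too), with a median of -0.06; the gene was Nhej1, which encodes the ligation factor XLF (0.27), named after its value was seen. Nhej1 measured 5.74, 5.81 and 5.65 at 10 weeks, against 5.44, 5.28 and 5.66 at 7 days, so that the ages overlapped. Its 24-hour arrays were at 5.65 each, and over the whole span it did not pass (0.09, adjusted p = 0.498). In the first week 3 of the 96 were higher and 3 lower, where 5.27% and 4.81% of all genes were. Brip1, the FANCJ helicase that binds BRCA1, rose by 0.48 (adjusted p = 0.00466), measuring 5.37, 5.49 and 5.57 at 7 days, against 5.0 on each 24-hour array, and then fell by 1.13. Parp3 rose by 0.50 and the helicase gene Recql by 0.26. Without 7-day replicates 2 and 3 none of these 3 was called, with differences of 0.37 for Brip1 (adjusted p = 0.171), 0.41 for Parp3 (adjusted p = 0.162) and 0.19 for Recql (adjusted p = 0.433). The genes that fell were Xpa (by 0.42), Ddb1 (by 0.37) and Rad23b (by 0.21), and of these Ddb1 alone was called without those arrays (-0.48, adjusted p = 0.0273). The number lower was 1 without 24-hour replicate 1 or 3 or without 7-day replicate 1 or 2. Over the whole span 39 of the 96 were lower and 6 higher, where 20.6% and 19.5% of all genes were. Among the higher ones were Parp3 (1.88), Polq (0.61) and Mgmt (0.48), which removes alkyl groups from guanine.

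**Figure D4:**
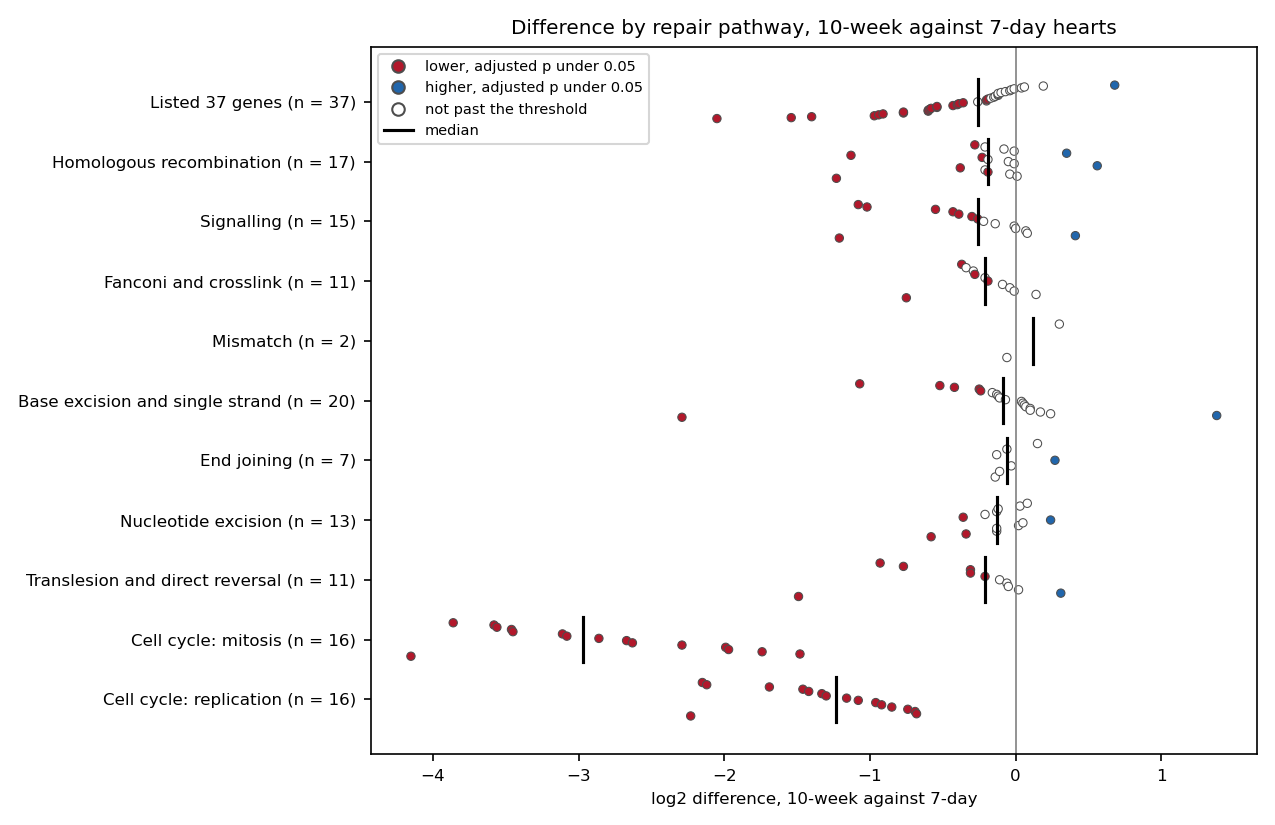
Log2 difference, 10-week against 7-day, of each gene (points) in the listed 37 genes, in further repair genes by pathway and in a cell cycle list, with the median of each set as a black line and filled points at an adjusted p under 0.05. The listed genes have a median of -0.26, mitosis genes -2.97 and replication genes -1.23.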

How the data were processed

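The deposited table holds 1 log2 signal per feature and array for 9 arrays, as the authors made it. MAS5 5.0 is named in the submitters' processing notes; how probes were summarised and arrays normalized is not given in the sources used here. Deposited values run from 1.85 to 13.58 with array medians within 0.05 of each other and were used unchanged. In 16 of the 37 genes, and in 51.5% of all genes, at least 2 of the 9 arrays share an exact value. The sharing arrays can be of 1 age, which narrows the spread between replicates, or of different ages, such as Fancc at 4.79.

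Of 35556 features 21789 have 1 gene symbol, and 21698 of these were matched by Entrez id. The highest-mean feature was kept for genes with several. With limma 3.58.1 (R 4.3.3), a mean for each age was fitted over the 9 arrays, using eBayes with an intensity trend, and p-values were adjusted by Benjamini and Hochberg over 19938 genes of a comparison; a gene is called at an adjusted p under 0.05. The 3 arrays per age limit the precision.

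The listed genes, the other lists and the tests were chosen with earlier results of these data known. Values on every array are given for the 8 largest called changes after 7 days, the 4 largest of the first week, genes called higher, the 5 uncalled genes of highest mean and a fixed set. Of the further repair list up to 4 called genes per direction and comparison are named (Brip1 is named in both steps). Nhej1 was named in addition, after its value was seen. Alternatives were median centring, quantile normalization, a filter on dim genes (highest age mean under the 25th percentile), a robust prior, no trend, only the 6 arrays compared, a replicate block, the mean of a gene's features, each array left out, 7-day replicates 2 and 3 left out, and a fold of at least 2. Promoter windows are those of RefSeq.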

Additional observations from a re-analysis of the deposited data

How the results depend on the processing

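In 1995 refits of a listed gene in a comparison under an alternative, no called difference changed sign; 60 lost the call and 21 gained it, and a difference called in neither fit was counted as unchanged whatever its sign. Of the 21 genes called between 7 days and 10 weeks, 12 stayed called in every alternative that refits the data: Blm, Brca1, Brca2, Chek1, Fancd2, Fancm, Msh6, Pms2, Rad51ap1, Rad51c, Rad54l and Xrcc5. Of the 22 called over the whole span, 18 did.

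In the first week the count of listed genes lower was 1 with all arrays, 2 with only the 6 arrays compared (Rad50 and Fancm, with Blm lost), 0 to 3 when 1 array was left out, and 0 without 7-day replicates 2 and 3 or at a fold of at least 2. Of the further repair genes 3 were higher and 3 lower; the counts were 2 to 4 and 1 to 4 with 1 array left out, 0 and 1 without 7-day replicates 2 and 3, and 0 and 0 at a fold of at least 2. In 10-week against 7-day hearts 1 listed gene was higher; this was 2 with median centring, quantile normalization, the filter on dim genes or no intensity trend, 1 to 3 with 1 array left out and 0 at a fold of at least 2. The 20 lower were 18 to 21 with 1 array left out, 11 without 7-day replicates 2 and 3 and 3 at a fold of at least 2. Further repair genes were higher in 7 cases, in 12 with median centring, 3 to 7 with 1 array left out, 4 without 7-day replicates 2 and 3 and 1 at a fold of at least 2; the 33 lower were 25 to 35, 21 and 8 in the last 3 settings. In 10-week against 24-hour hearts 2 listed genes were higher, and 1 with a robust prior, only the 6 arrays compared, the replicate block or without 7-day replicates 2 and 3, 1 to 3 with 1 array left out and 0 at a fold of at least 2. The 20 lower were 17 to 22 with 1 array left out and 5 at a fold of at least 2; the 39 lower and 6 higher of the further genes were 5 and 1 at that fold. Leaving out 7-day replicates 2 and 3 leaves 1 array there, assumed to vary like the other ages; otherwise the cause of these shifts was not tested. The median difference of the listed genes between 7 days and 10 weeks was -0.38 to -0.20 with 1 array left out.

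Replicate numbers are shared by the ages, but deviations of same-numbered arrays from their age means correlated at -0.174 to 0.133, so the numbers were not taken as pairs; with a replicate block the listed genes lower were 19 after 7 days and 19 over the span, and 1 in the first week. Without detection flags, the signal over background that limits dim genes is unknown.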

Other observations

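The array that held the highest value of its age was counted over the listed genes, with ties given to the lower replicate number. At 24 hours it was replicate 3 for 22 of the 37 genes, against 30.7% of all genes, and replicates 1 and 2 for 7 and 8. The same array had the highest mean over the 32 mitosis and replication genes, at 7.43, against 7.14 and 7.12. At 7 days replicates 1, 2 and 3 held the highest value for 13, 10 and 14 genes. At 10 weeks replicate 3 held it for 19 genes, against 36.0% of all genes, and replicates 1 and 2 for 7 and 11, while the mean over the mitosis and replication genes was 5.05, 5.21 and 5.13 in the order of the replicates. The erythroid gene Alas2 measured 4.56, 7.12 and 4.25 on these adult arrays. The median SD of the listed genes within an age was 0.07 at 24 hours, 0.06 at 7 days and 0.11 at 10 weeks.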
